A study of Mus musculus with 6 samples.

Results

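Bone morphogenetic proteins (BMPs), activins, their secreted antagonists and the ID transcription regulators were followed as 10 genes, Bmp2, Bmp4, Bmp6, Inhba, Inhbb, Fst, Grem1, Id1, Id2 and Id3, in mouse hepatic stellate cells. They were chosen by name, with earlier results of these data known. Every probe set that the platform annotation gives to 1 of these symbols only was taken. This yielded 15 of the 45101 probe sets and 10 of the 18194 genes on the array. Hepatic stellate cells are the vitamin A storing pericytes of the liver, which turn into matrix-producing myofibroblasts after injury. All cells came from C57Bl/6 mice that carry the transgenes CMV-rtTA and TRE-GFP-shRNA.p53.1224, in which a doxycycline-dependent activator under the CMV promoter switches on a green fluorescent protein and a short hairpin RNA against p53. In the proliferating group (3 arrays) the hairpin was switched on with 1 ug/ml doxycycline and the labels give p53 as knocked down. The senescent group (3 arrays) had the same transgenes, control treatment and p53 expressed, per the labels. Doxycycline, the hairpin and the proliferating state coincide in the same arrays, so their effects cannot be told apart. Differences are given as proliferating minus senescent on the log2 scale, so a positive value means more RNA in proliferating cells.

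BMPs and activins are dimeric ligands of the transforming growth factor beta superfamily that bind paired type I and type II receptor kinases. BMP receptors phosphorylate SMAD1, SMAD5 and SMAD9, which switch on the Id genes, while activin receptors phosphorylate SMAD2 and SMAD3. Gremlin 1 traps BMPs and follistatin traps activins outside the cell. ID proteins lack a DNA-binding region and hold E proteins in dimers that cannot bind the E-box motif. In the liver, BMP6 and BMP2 are known as products of sinusoidal endothelial cells that drive hepcidin, and activin A and gremlin 1 have been linked to stellate cell activation.

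The values are log2 expression values made with RMA, a method that brings all arrays to one distribution, so each difference is relative to the bulk of the genes. Probe sets for poly-A spike-in RNA, added before labelling, read lower on proliferating than on senescent arrays (-0.54 ± 0.15, SE, 27 probe sets, exact permutation p = 0.1, the smallest that 3 against 3 arrays allow). Scaling to them raised the median difference of all genes by 0.54, and the members that change sign under that scaling are named beside their values. It also gave all 10 genes the same SE of 0.19 in limma, so calls under it do not use the spread of each gene. Proliferating replicate 1 stood apart on the second principal component (12.4% of the variance), at 17.7 against -12.3 to 4.82 for the other arrays. It was also the proliferating array farthest from the other two for 9 of the 10 genes, against 45.2% of all genes. Nothing in the labels shows whether the 3 arrays of a group stem from different mice or cultures, so the spread behind each p-value may be technical.

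Of 14 measured stellate cell markers, 9 averaged above background, among them Acta2, Col1a1 and Vim, but Lrat and Reln, which define quiescent stellate cells, were below it on all 6 arrays. Background was taken as 5.57 log2 units, the 95th percentile over 44 probe sets for olfactory receptors. The stellate list summed to 16.86 to 16.90 (log2) on proliferating and 16.66 to 16.67 on senescent arrays. In it 5 markers were called higher, among them Pdgfrb (1.30) and Col3a1 (0.93), and 0 lower, beside 10.5% and 9.49% of all genes. Tagln (-0.32), Des (-0.14), Acta2 (-0.12) and Vim (-0.10) lay lower on every proliferating array without passing. The median difference of the stellate list was 0.03. All 7 mesothelial markers averaged above background, and their sum was 14.36 to 14.49 on proliferating and 14.45 to 14.47 on senescent arrays. Within that list 3 markers were higher and 2 lower in proliferating cells, Lrrn4 by 1.80 and Msln by -0.79. Upk1b averaged 12.90 on proliferating and 13.33 on senescent arrays, and Upk3b averaged 12.61 on proliferating and 12.42 on senescent arrays. With these mesothelial markers bright and Lrat and Reln below background, the markers do not settle the labelled cell type, and hepatic stellate cell is used here as the name the labels give. Of 12 endothelial markers 2 averaged above background, namely Kdr and Emcn, and Pecam1, Stab2 and Lyve1 were below it on every array. Cdh5, below background on all proliferating and above it on all senescent arrays, was the endothelial marker that was called, as lower (-0.72 ± 0.07, limma, adjusted p = 4.10e-04). The endothelial sum was 9.62 to 9.84 on proliferating and 9.86 to 9.97 on senescent arrays. Of the other lists, 4 of 5 biliary markers averaged above background and their sum was 10.98 to 11.04 on proliferating and 11.31 to 11.46 on senescent arrays. That sum leans on the brightest of them, Krt19, which was called lower (-0.58). Krt7 was called higher (0.69), and the median difference of the biliary list was 0.24. For macrophages (6 of 10 above background, Adgre1 and Ptprc below it on all arrays) and hepatocytes (4 of 8, Alb below it on all arrays) the sums of the groups overlapped. Even so, 1 marker of each was called lower, Csf1r for macrophages (-0.35) and Apob for hepatocytes (-0.86). The part of these markers in the results below was not tested. In such bulk samples, fewer cells of a type and less RNA per cell cannot be told apart.

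Of the 10 genes, proliferating cells had less RNA of Inhba, Inhbb, the activin antagonist gene Fst and, with the arrays as deposited, Id2. For Inhba and Inhbb this held in the brighter of 2 probe sets. Proliferating cells had more RNA of the ligand gene Bmp4 and, by a small margin, of Id3. Fst showed the largest difference of the 10, 2.90-fold lower in proliferating than in senescent cells (-1.54 ± 0.19, log2, SE, n = 3 per group), followed by Inhba at 2.43-fold lower (-1.28 ± 0.15) and Inhbb at 1.86-fold lower (-0.89 ± 0.14). Bmp4 was 1.85-fold higher (0.89 ± 0.17). Of the 10 genes, 2 were higher and 4 lower at an adjusted p under 0.05 (limma with Benjamini-Hochberg adjustment over all genes), beside 10.5% of all genes higher and 9.49% lower. With each array centred on genes of middle level the share of called genes that were higher was 36.8%, against 52.6% as deposited. In either direction 6 of 10 passed, against 20.0% of all genes and 27.4% of the 12501 genes above background. The 10 genes were chosen with earlier results of these data known, so counts beside these shares are a description and not a test. The proliferating and senescent arrays did not overlap for the same 6 genes, beside 37.0% of all genes. In a fit over all 45037 probe sets that are not controls, 8 of the 15 member probe sets passed, beside 12.4% of these probe sets. Of the 8, 1 was higher and 7 lower, beside 6.39% and 5.99% of all probe sets. The groups did not overlap for 9 of the 15, beside 31.0%.

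**Figure D1:**
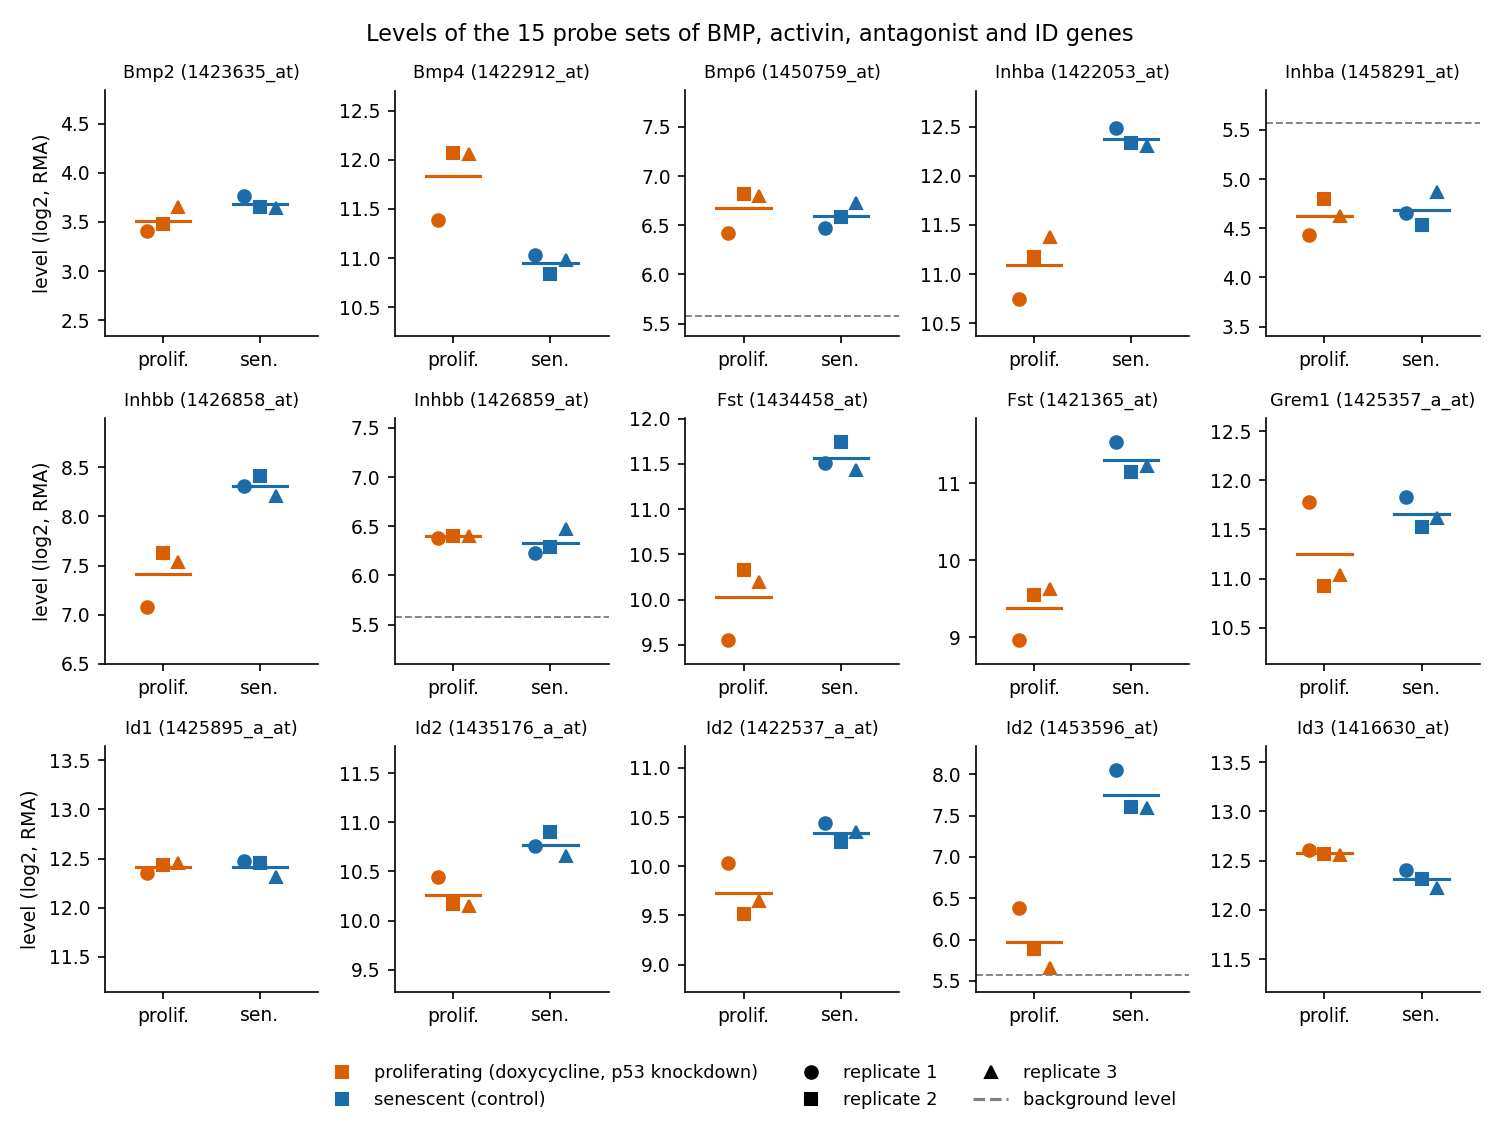
Level (log2, RMA) of each of the 15 probe sets on the 6 arrays, proliferating on the left and senescent on the right of each panel. Points are arrays, with the shape giving the replicate number, horizontal bars are group means, and the dashed line is the background level of 5.57 where it falls within a panel. As deposited, both probe sets of Fst, the first probe sets of Inhba and Inhbb, and all 3 probe sets of Id2 lie lower on every proliferating array, and Bmp4 and Id3 lie higher.

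Of the BMP ligand genes, Bmp4 (Entrez gene 12159) was bright in both groups. It read 11.38, 12.07 and 12.05 on the proliferating arrays and 11.03, 10.84 and 10.98 on the senescent arrays. Every proliferating array was above every senescent one, and the proliferating replicate 1 was the nearest to the senescent group. The difference of 0.89 ± 0.17 passed (limma, adjusted p = 0.00887) and became 1.11 without that array. In the fit over all probe sets the call ended without proliferating replicate 3 (0.78), senescent replicate 2 (0.83) or senescent replicate 3 (0.90). Bmp6 (Entrez gene 12161), which encodes a ligand that induces hepcidin in the liver, read 6.42, 6.82 and 6.80 in proliferating and 6.47, 6.59 and 6.72 in senescent cells. These levels were not far above background and the groups overlapped (0.09 ± 0.12, limma, adjusted p = 0.698). Bmp2 (Entrez gene 12156), another ligand gene, was below background on all 6 arrays, at 3.40 to 3.65 in proliferating and 3.64 to 3.77 in senescent cells, so no fold is given. Its difference was -0.17 ± 0.09 as deposited and 0.37 with poly-A scaling.

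Among 17 measured BMP and growth differentiation factor (GDF) ligands, Gdf10 was the other gene that passed besides Bmp4. GDF10, also called BMP3b, is a secreted member of the superfamily. Gdf10 read 7.25, 7.02 and 7.07 on the proliferating arrays and 5.59, 5.52 and 5.54 on the senescent arrays. It stood clear of background in every proliferating array, while 2 of 3 senescent arrays and their mean lay below it (fitted difference 1.56 ± 0.08, limma, adjusted p = 2.82e-05), so no fold is given. The list thus had 2 genes higher and 0 lower, beside 10.5% of all genes higher and 9.49% lower. The median difference of the list was 0.01, beside 0.00 for all genes.

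The promoter sequence of Bmp4 is shown because Bmp4 was the BMP ligand member that was called and its window holds a GC-rich SMAD1/5 motif. The window runs from 250 bases before to 50 after the RefSeq start site (chr14:46390620-46390919, GRCm38.p6, minus strand), and capitals mark the reverse complement of GGAGCC.
Bmp4: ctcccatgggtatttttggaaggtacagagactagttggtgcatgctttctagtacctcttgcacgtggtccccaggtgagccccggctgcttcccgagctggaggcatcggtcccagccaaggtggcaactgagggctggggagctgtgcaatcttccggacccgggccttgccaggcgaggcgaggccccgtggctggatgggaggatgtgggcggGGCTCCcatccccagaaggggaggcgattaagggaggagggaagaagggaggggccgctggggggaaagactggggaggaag
The match begins 32 bases before the start site. GGAGCC or its reverse complement occurs in 30.8% of the 32851 promoter windows of the same length. The window also holds 3 E-boxes (CANNTG), a motif present in 72.3% of windows.

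Both activin beta subunit members were lower in proliferating cells. Inhba (Entrez gene 16323) encodes the beta A subunit, whose homodimer is activin A. It read 10.75, 11.17 and 11.38 on the proliferating arrays and 12.49, 12.34 and 12.30 on the senescent arrays. Every proliferating array was well below every senescent one (-1.28 ± 0.15, limma, adjusted p = 8.30e-04). A second Inhba probe set was below background on all 6 arrays and gave -0.06 ± 0.12, so the mean of both was -0.67.

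Inhbb (Entrez gene 16324), which encodes the beta B subunit of activin B, read 7.08, 7.63 and 7.54 on the proliferating arrays and 8.31, 8.41 and 8.21 on the senescent arrays. The arrays did not overlap (-0.89 ± 0.14, limma, adjusted p = 0.00318), and the difference was -0.73 without proliferating replicate 1. Its other probe set differed by 0.07 ± 0.09, with levels of 6.38 to 6.40 in proliferating and 6.23 to 6.47 in senescent cells, and the mean of both gave -0.41. The probe sets of each gene therefore disagreed, the dimmer one of each pair showing no difference that passed. Of the 3 further subunits measured, Inha of the inhibins, Inhbc and Inhbe, none passed in limma, before adjustment either (0.16, 0.02 and -0.13). On each array the Inhba value minus the Inhbb value, which compares arrays and not the amounts of the transcripts, was 3.67, 3.54 and 3.84 in proliferating and 4.18, 3.92 and 4.10 in senescent cells. The measured difference of Inhba was larger than that of Inhbb by 0.38 ± 0.11 (SE), with all arrays separated (exact permutation p = 0.1, 0.14 after adjustment over 7 such pairs chosen after the data were seen). The Inhbb probe set was much the dimmer, and RMA compresses differences of dim probe sets. The part of this compression in the gap was not tested.

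The promoter window of Inhba (chr13:16011601-16011900, GRCm38.p6, plus strand) is shown for comparison with that of Bmp4, since the genes moved in opposite directions and both windows hold GGAGCC in reverse complement. Capitals mark that motif and a TATAAA.
Inhba: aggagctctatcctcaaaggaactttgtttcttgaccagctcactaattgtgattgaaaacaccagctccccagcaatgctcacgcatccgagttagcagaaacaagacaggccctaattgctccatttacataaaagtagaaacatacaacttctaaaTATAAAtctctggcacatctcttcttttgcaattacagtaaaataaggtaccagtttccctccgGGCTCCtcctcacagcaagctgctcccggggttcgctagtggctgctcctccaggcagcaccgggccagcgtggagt
The SMAD1/5 motif begins 27 bases and the TATAAA 91 bases before the start site, and TATAAA occurs in 13.6% of all windows. The window of Inhbb held none of the motifs searched, which says only that these letters are not in that window. GC made up 47.7% of the Inhba window, 64.0% of the Bmp4 window and 53.8% of all windows.

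Among antagonists, Fst (Entrez gene 14313) encodes follistatin, which binds activins and, more weakly, some BMPs. Its brighter probe set read 9.55, 10.33 and 10.20 on the proliferating arrays and 11.51, 11.74 and 11.44 on the senescent arrays. Both Fst probe sets were lower on every proliferating array. The brighter one gave -1.54 ± 0.19 (limma, adjusted p = 0.00110) and the other -1.93 ± 0.18 (limma over probe sets, adjusted p = 6.42e-04). Fst was also compared with the gene of its ligand on each array. Fst minus Inhba was -1.20, -0.84 and -1.18 on proliferating and -0.97, -0.60 and -0.87 on senescent arrays, and the groups overlapped (difference -0.26 ± 0.16, exact permutation p = 0.3).

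Grem1 (Entrez gene 23892) encodes gremlin 1, an antagonist of BMP2, BMP4 and BMP7. It read 11.78, 10.93 and 11.03 on the proliferating arrays and 11.83, 11.52 and 11.61 on the senescent arrays. Proliferating replicate 1 lay among the senescent arrays and the other two below them. The difference of -0.41 ± 0.21 did not pass (limma, adjusted p = 0.228), but without proliferating replicate 1 it was -0.68 and passed (adjusted p = 0.00500). The call on Grem1 therefore rests on 1 array, and its sign on the scaling (0.13 with poly-A scaling). Bmp4 minus Grem1, a ligand against its antagonist, was -0.40, 1.14 and 1.02 on proliferating and -0.80, -0.68 and -0.64 on senescent arrays. The arrays did not overlap, with a difference of 1.29 ± 0.50 (exact permutation p = 0.1, 0.14 after adjustment) that was 1.79 without proliferating replicate 1.

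Of 18 measured secreted antagonists 5 were lower and 1 higher in proliferating cells, beside 9.49% of all genes lower and 10.5% higher. The list median was 0.00. Fstl3, a follistatin relative that also binds activins, read 7.15, 7.23 and 7.22 on proliferating and 8.20, 8.10 and 8.16 on senescent arrays. It was 1.94-fold lower with arrays far apart (-0.95 ± 0.07, limma, adjusted p = 9.36e-05). Crim1, a membrane protein that binds BMPs, and Nbl1, a BMP antagonist also called DAN, were 1.66-fold and 1.54-fold lower. The fifth was Nog, which encodes noggin. It was below background on all 6 arrays, gave 0.0066 with poly-A scaling, and lost its call without senescent replicate 1 (-0.48) or senescent replicate 2 (-0.55). The exception was Fstl1, a secreted glycoprotein of the follistatin family, 1.32-fold higher (0.40 ± 0.07). Nog and Fstl1 were named after their values were seen.

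**Figure D2:**
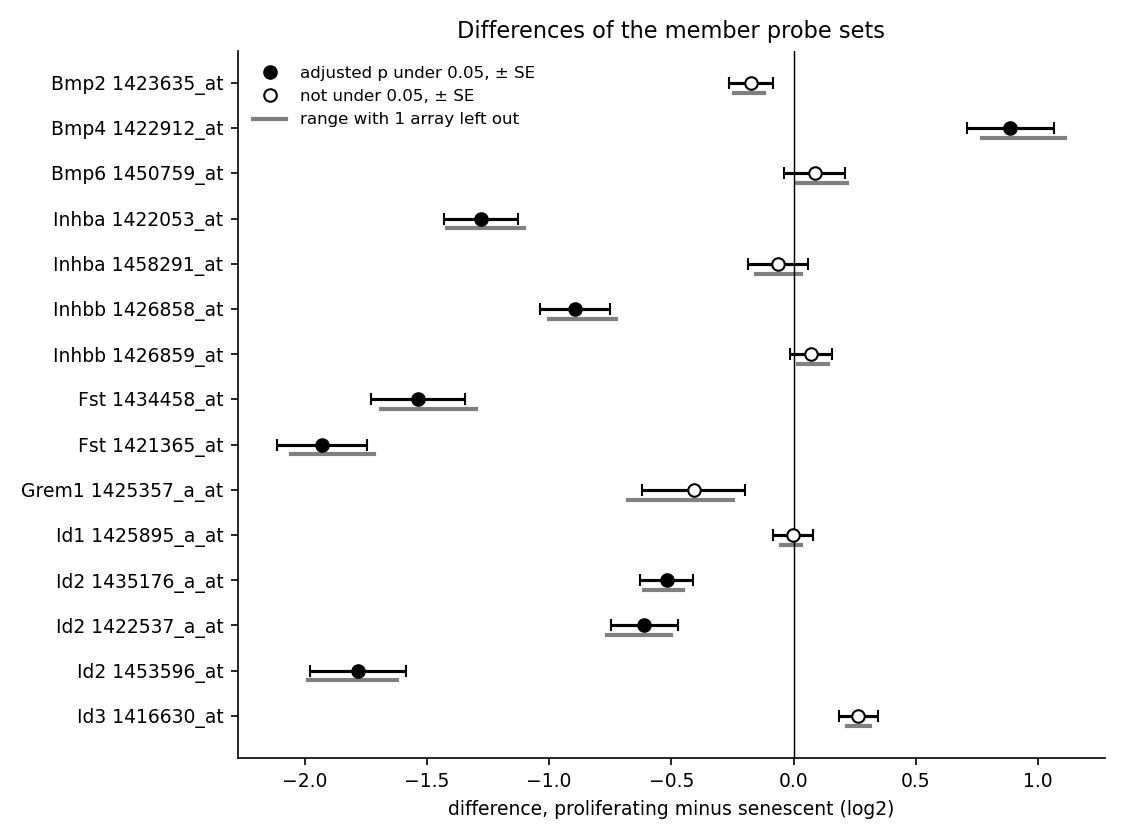
Difference (log2, proliferating minus senescent) of each member probe set from the fit over all probe sets, with its SE as error bar. Filled points passed an adjusted p of 0.05, and the grey line under each point spans the differences with each of the 6 arrays left out in turn. With the arrays as deposited, both Fst probe sets and all 3 of Id2 lie left of 0, and the second probe sets of Inhba and Inhbb lie near 0.

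Of the 3 ID genes, a common readout of BMP signalling, Id3 was higher, Id2 lower and Id1 not called with the deposited scaling. The sign of the brightest of 3 Id2 probe sets rests on that scaling. Id1 (Entrez gene 15901) read 12.35, 12.43 and 12.46 on the proliferating arrays and 12.47, 12.46 and 12.31 on the senescent arrays. Its groups overlapped fully and the difference was 0.00 ± 0.08 (limma, adjusted p = 0.990). With 1 array left out it ran from -0.053 to 0.029, so Id1 had no clear sign as deposited. With poly-A scaling Id1 gave 0.54 and passed (limma, adjusted p = 0.00827). Id3 (Entrez gene 15903) read 12.61, 12.57 and 12.56 on the proliferating arrays and 12.41, 12.32 and 12.22 on the senescent arrays. All proliferating arrays were higher, by 0.26 ± 0.07 or 1.20-fold (limma, adjusted p = 0.0381). This call is narrow. It ended in the fit over all probe sets (adjusted p = 0.0697), with a replicate block (adjusted p = 0.0708) and in 5 of 6 fits with 1 array left out (differences of 0.22 to 0.31).

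Id2 (Entrez gene 15902) went the other way. Its brightest probe set read 10.45, 10.17 and 10.15 on the proliferating arrays and 10.76, 10.90 and 10.66 on the senescent arrays. It was lower on each proliferating array (1.43-fold, -0.52 ± 0.10, limma, adjusted p = 0.00957). The second probe set gave -0.61 ± 0.14 (limma over probe sets, adjusted p = 0.0237). The dimmest of the 3 read 6.38, 5.88 and 5.65 on proliferating and 8.06, 7.61 and 7.59 on senescent arrays. This was a larger difference, -1.78 ± 0.20 (limma over probe sets, adjusted p = 0.00125), with the proliferating arrays just above background. The gap between the dimmest and the brightest probe set differed between groups by -1.26 ± 0.21 with no overlap (exact permutation p = 0.1, 0.14 after adjustment). Scaled to the poly-A spike-ins, the brightest Id2 probe set gave 0.023, the second -0.069 without passing, and the dimmest -1.24, which passed. In the fit over all probe sets the call on the brightest ended in 4 and that on the second in 5 of 6 fits with 1 array left out (-0.61 to -0.45 and -0.76 to -0.50), while the dimmest kept its call in all 6.

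Id3 and the brightest Id2 probe set were set against each other on each array. Shifting all values of an array by the same amount does not move this measure. Id3 minus Id2 was 2.17, 2.40 and 2.41 on the proliferating arrays and 1.65, 1.41 and 1.56 on the senescent arrays. All proliferating arrays were higher, by 0.78 ± 0.10 (exact permutation p = 0.1, 0.14 after adjustment). Id3 minus Id1 was also higher on every proliferating array, by 0.27 ± 0.05 (exact permutation p = 0.1, 0.14 after adjustment). Id4, the remaining ID gene, named after its values were seen, read 7.404, 7.46 and 7.37 on proliferating and 7.03, 7.13 and 6.33 on senescent arrays (0.58 ± 0.19, limma, adjusted p = 0.0645). Its call depends on the setting. Id4 passed as higher without senescent replicate 3 (0.33), with a replicate block, among genes above background, with a robust variance trend and with poly-A scaling.

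The promoter windows of Id2 (chr12:25096043-25096342, GRCm38.p6, minus strand) and Id3 (chr4:136143572-136143871, GRCm38.p6, plus strand) are shown because these targets of the same SMADs differed in direction. Capitals mark the motif GGAGCC on either strand and, in the window of Id2, also GGCGCC.
Id2: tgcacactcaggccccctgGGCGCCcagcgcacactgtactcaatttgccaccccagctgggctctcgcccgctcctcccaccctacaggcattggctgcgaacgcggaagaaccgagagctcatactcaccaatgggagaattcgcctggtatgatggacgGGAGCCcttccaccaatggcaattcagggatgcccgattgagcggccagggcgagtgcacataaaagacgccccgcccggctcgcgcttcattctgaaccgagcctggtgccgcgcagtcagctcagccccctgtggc
Id3: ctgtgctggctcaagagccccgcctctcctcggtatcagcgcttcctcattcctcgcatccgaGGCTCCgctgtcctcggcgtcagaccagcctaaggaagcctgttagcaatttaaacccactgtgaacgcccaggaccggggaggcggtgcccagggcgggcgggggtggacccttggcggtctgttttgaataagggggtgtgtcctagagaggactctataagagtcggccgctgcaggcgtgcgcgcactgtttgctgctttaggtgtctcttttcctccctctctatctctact
Id2 holds GGCGCC 231 bases and GGAGCC 88 bases before the start site, and Id3 holds the reverse complement of GGAGCC 187 bases before it. GGCGCC occurs in 11.9% of all windows. The SMAD-binding letters CAGACA, present in 21.0% of windows on either strand, were in none of the 7 member windows matched in the RefSeq table (those of Bmp2, Fst and Id1 are not shown). Id2 has 1 E-box in its window and Id3 has none.

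The E protein genes, whose products the ID proteins sequester, were all 3 higher in proliferating cells. Tcf4 read 11.05, 10.93 and 10.82 on proliferating and 10.35, 10.44 and 10.22 on senescent arrays. It was 1.51-fold higher without overlap (0.60 ± 0.09, limma, adjusted p = 0.00258). Tcf3 (0.36 ± 0.07, limma, adjusted p = 0.00724) and Tcf12 (0.35 ± 0.08, limma, adjusted p = 0.0210) were higher by similar amounts. In the probe-set fit the same direction passed for 3 of 6 probe sets of Tcf4, 1 of 3 of Tcf3 and 1 of 5 of Tcf12. The Tcf12 call ended without proliferating replicate 1 (0.31), senescent replicate 1 (0.37) or senescent replicate 3 (0.29), and with the mean of all its probe sets (0.16). With the 4 ID genes, 4 of 7 listed genes were higher and 1 lower, beside 10.5% and 9.49% of all genes. The median difference of this list was 0.35.

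Of 9 type I and type II receptor genes, 2 were higher and 2 lower in proliferating cells, beside 10.5% and 9.49% of all genes. Bmpr1a, the widely expressed type I BMP receptor, was 1.28-fold higher (0.36 ± 0.09), in 1 of its 6 probe sets. Acvr1b, the activin type I receptor, was 1.22-fold higher (0.28 ± 0.08, limma, adjusted p = 0.0464), in neither of its 2 probe sets in the fit over probe sets. The Bmpr1a call ended in 4 of the 6 fits with 1 array left out (0.28 to 0.43) and with the mean of its probe sets (0.17), and the Acvr1b call in 5 of the 6 (0.23 to 0.33). The dim genes Bmpr1b and Acvrl1 were lower, the second turning to 0.11 with poly-A scaling. Acvrl1, an endothelial type I receptor, was below background on all proliferating arrays and 5.72 to 5.93 on senescent arrays, at least 1.18-fold lower (limma, adjusted p = 0.00558). Bmpr1b gave -0.69 ± 0.16 with 1 proliferating array below background and -0.34 over the mean of its probe sets, a call lost without proliferating replicate 1 (-0.58), senescent replicate 1 (-0.55) or senescent replicate 2 (-0.71).

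Among 9 genes of co-receptors and of the decoy receptor BAMBI, 2 passed, Tgfbr3 and Eng, in opposite directions, beside 20.0% of all genes. Tgfbr3, which encodes betaglycan, a co-receptor of inhibin and TGF-beta, read 11.56, 10.85 and 10.80 on proliferating and 9.93, 10.08 and 9.90 on senescent arrays. It was 2.14-fold higher (1.10 ± 0.19, limma, adjusted p = 0.00453), 0.85 without proliferating replicate 1 and 0.59 over the mean of its probe sets. Eng, which encodes endoglin, a co-receptor abundant in endothelium, was 1.47-fold lower (-0.55 ± 0.10, limma, adjusted p = 0.00576).

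Within the SMAD group of 13 genes, 1 was higher and 4 lower in proliferating cells, beside 10.5% and 9.49% of all genes. The group median was -0.10. Smad7, the inhibitory SMAD induced by activin and TGF-beta, read 9.43, 9.51 and 9.62 on proliferating and 10.24, 10.25 and 10.14 on senescent arrays. It was 1.61-fold lower in both its probe sets (-0.69 ± 0.08, limma, adjusted p = 7.11e-04). Smad5, which carries the BMP signal, was 1.36-fold higher (0.44 ± 0.07), in 2 of its 3 probe sets, and the one of largest variance gave 0.28 without passing. The corepressor gene Skil gave -0.37 ± 0.09, a call lost in 5 of 6 fits with 1 array left out (-0.47 to -0.30), with 0.17 under poly-A scaling. The ubiquitin ligase gene Smurf2 gave -0.30 ± 0.07, not passing when senescent replicate 1 was left out (-0.30, limma, adjusted p = 0.0556), and 0.24 with poly-A scaling. The remaining call was Zfyve9, a SMAD anchor named after its values were seen (-0.30 ± 0.07), lost in 4 of 6 fits with 1 array left out (-0.33 to -0.26) and 0.24 with poly-A scaling. Smad6, the inhibitory SMAD of the BMP branch, read 10.07 to 10.58 in proliferating and 10.14 to 10.23 in senescent cells and did not pass (0.20 ± 0.13).

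Of 13 other BMP target genes, 1 was higher and 5 lower in proliferating cells (median -0.10), beside 10.5% and 9.49% of all genes. Msx1, a homeobox gene, was 1.45-fold higher (0.53 ± 0.10, limma, adjusted p = 0.00832), or 0.24 over the mean of its probe sets. Besides Smad7 and Nog, which earlier lists also hold, the lower ones were Hamp, Msx2 and Atoh8. Hamp, which encodes hepcidin and has a close paralogue whose transcripts may share its probes, was below background on all proliferating arrays and 6.15 to 6.44 on senescent arrays, at least 1.67-fold lower (limma, adjusted p = 4.53e-04). Msx2 was likewise below background on all proliferating arrays and on 1 senescent array. Atoh8, a helix-loop-helix factor named after its values were seen, was 1.32-fold lower as deposited, with 0.14 under poly-A scaling, and its call ended in 3 of 6 fits with 1 array left out (-0.48 to -0.35). The decoy receptor gene Bambi differed by 0.35 ± 0.14 (limma, adjusted p = 0.139).

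Of 6 proteases that mature these ligands or cut their antagonists, 3 were lower in proliferating cells, beside 9.49% of all genes. Tll1, a tolloid-like protease that cleaves the BMP antagonist chordin, gave -2.44 ± 0.15 with 1 proliferating array below background. Pcsk6, a proprotein convertase, was 1.65-fold lower (-0.72 ± 0.07, limma, adjusted p = 2.58e-04). Pcsk5, of the same family, gave -0.46 ± 0.12, in 2 of 5 probe sets. That call ended with the mean of all its probe sets (-0.11), with poly-A scaling (0.083) and in 4 of 6 fits with 1 array left out (-0.56 to -0.34). Over all lists, with each gene counted once, 12 of 92 measured genes were higher and 21 lower, beside 10.5% and 9.49% of all genes. Their median was -0.01. These counts include the 10 members, and of the 82 other genes 10 were higher and 17 lower.

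**Figure D3:**
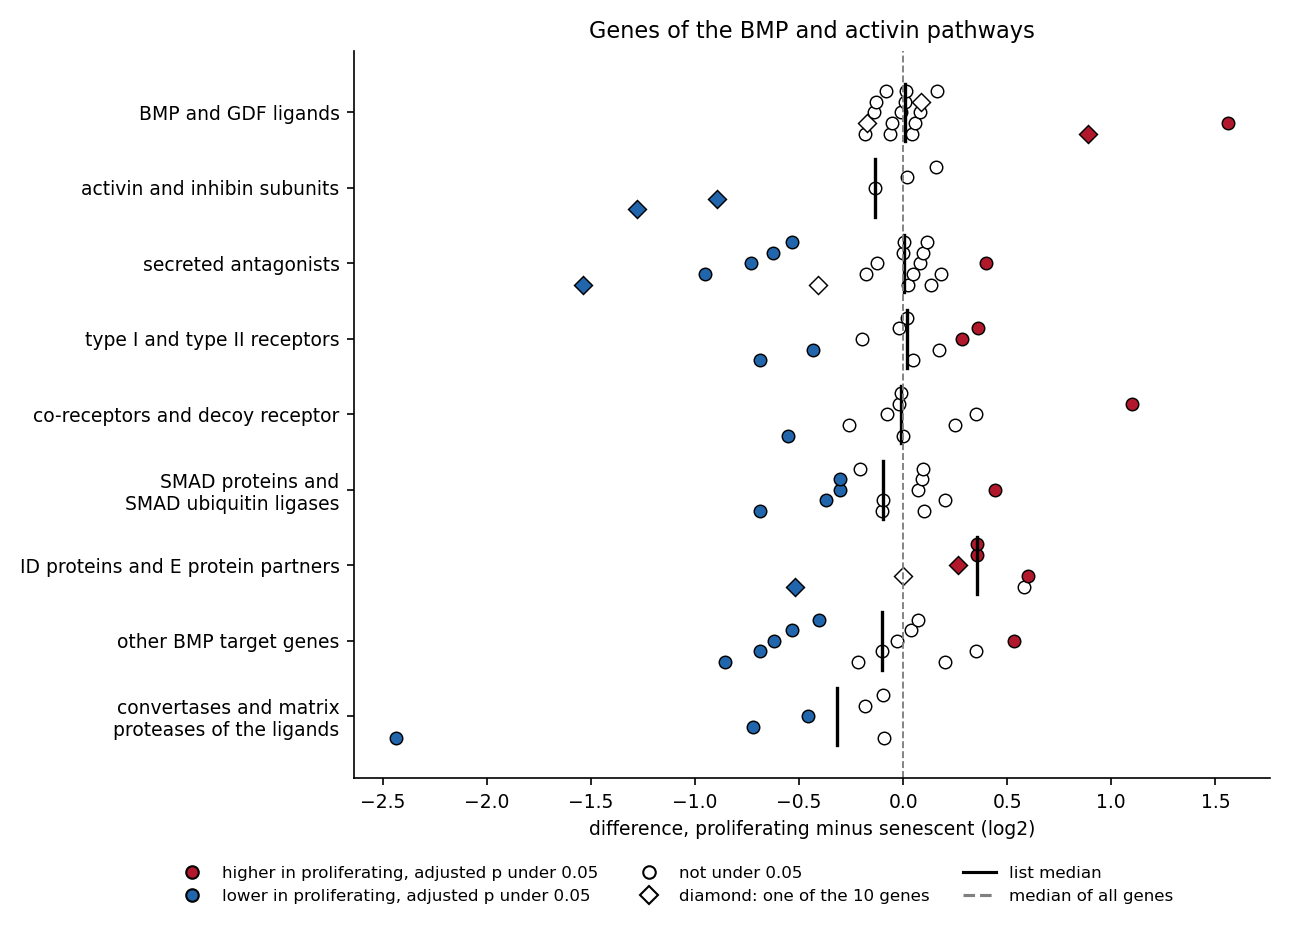
Difference (log2, proliferating minus senescent) of each gene in the 9 pathway lists, read from its brightest probe set. Red points were higher and blue points lower in proliferating cells at an adjusted p under 0.05, diamonds are the 10 member genes, black bars are list medians and the dashed line is the median of all genes. Most genes lie near 0, with Tll1 at -2.44 and Gdf10 at 1.56 at the ends.

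Genes with the most similar profile over the 6 arrays were found by Pearson correlation among 11994 other genes above background, with unnamed clones (symbols ending in Rik or starting with Gm and a digit) left out, as a description over 6 arrays that form 2 groups. Fst was closest to Zdhhc2 and Ube2f (r of 0.9998 and 0.999), and Inhbb to Ube2f and to Fst itself (0.999 and 0.998). Inhba was closest to Rdh13 and Tns4 (0.999 for both). Bmp4 was closest to Arhgap8 and Kif23 (0.998 and 0.997), Id2 to Rdh10 and Sytl2 (0.998 and 0.997), and Id3 to Gbp2 and Mrpl27 (0.998 and 0.993).

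The direction of several members depends on how arrays are scaled. Centring arrays on their middle-level genes put the median of all genes at -0.07, and the 10 members kept their signs, with the call on Id3 lost (0.20, limma, adjusted p = 0.0905). Scaled to the poly-A spike-ins, Fst (-0.996), Inhba (-0.74) and Inhbb (-0.35) were still lower in proliferating cells, the last without passing (limma, adjusted p = 0.0716). Limma gave all 10 members the same SE of 0.19 under this scaling, so its calls there do not use the spread of each gene. Bmp4 was higher by 1.43. Bmp2, Grem1, Id1 and the brightest of the 3 Id2 probe sets changed sign there, Id1 from a difference near 0. Bmp6 (0.63) and Id1 (0.54), not called as deposited, passed as higher, beside a shift of all genes by 0.54. Crim1, Nbl1, Eng, Smad7, Hamp, Msx2, Pcsk6 and Bmpr1b kept their sign without passing under that scaling.

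**Figure D4:**
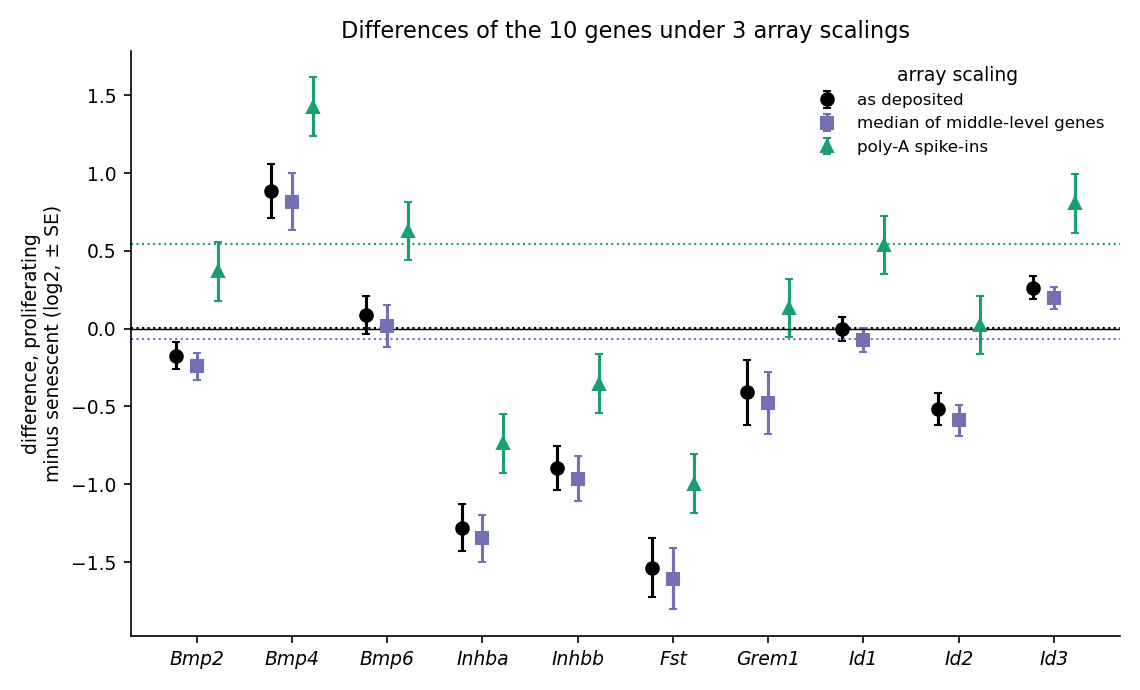
Difference (log2, proliferating minus senescent, ± SE) of the 10 genes with the arrays as deposited, centred on the median of middle-level genes and scaled to the poly-A spike-ins. Dotted lines give the median difference of all genes under each scaling, at 0.54 for the spike-ins. The SE with the spike-ins is the same for all 10 genes. Fst, Inhba and Inhbb lie below 0 and Bmp4 and Id3 above it under all 3, while Bmp2, Grem1, Id1 and Id2, each read from its brightest probe set, change sign with the spike-ins.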

How the data were processed

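Total RNA of 6 samples was extracted with Trizol and labelled with biotin for Affymetrix arrays, per the labels' protocols. The authors deposited 1 log2 value for each probe set and array, and the submitters' processing notes name RMA. The RMA software and any batches are not given here. RMA compresses differences of dim probe sets. The number of arrays limits the precision (median SE 0.0884 log2 units).

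Symbols came from a platform annotation (34958 probe sets with 1 symbol, 932 with several, which were not named), updated by Entrez number from a RefSeq table of GRCm38.p6 (34754 matched). Each gene was read from its brightest probe set. Groups came from the sample titles. Differences were tested in R 4.3.3 with limma 3.58.1 (lmFit, eBayes), adjusted by Benjamini-Hochberg at 0.05, and checked on simulated data. Single values were compared by exact two-sided permutation over arrays. Where all arrays of 1 group were below background, the fold is a bound against 5.57. The members, the 9 lists and the tests were chosen with earlier results of these data known. Of each list, up to 4 called genes by size of difference were named, and for each called member the 2 most similar genes. The uncalled Smad6, Bambi, Inha, Inhbc, Inhbe and Id4, and Fstl1, Nog, Atoh8 and Zfyve9, were added after their values were seen. Of 100 listed genes, 92 had a probe set that names them alone, and the other 8 and the hairpin's target transcript were not analysed here. Promoter windows (250 bases before to 50 after a start site, GRCm38.p6) came from a RefSeq promoter table, in which 7 of the 10 genes were matched. Motifs were searched on both strands. Alternatives changed the probe sets, filter, variance prior, scaling, replicate block and arrays left out. Python 3.11.15 with matplotlib 3.10.9 drew the figures.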

Additional observations from a re-analysis of the deposited data

How the results depend on the processing

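In the fit over genes, Fst, Inhba and Bmp4 kept direction and call under all 8 alternatives and with each array left out (differences of -1.93 to -0.996, -1.35 to -0.67 and 0.82 to 1.43 under the alternatives, and -1.69 to -1.30, -1.42 to -1.10 and 0.77 to 1.11 with an array left out). Inhbb and Id2 kept theirs except under poly-A scaling, with -1.0001 to -0.73 and -0.61 to -0.45 when an array was left out. In the fit over all probe sets with an array left out, Bmp4 kept its call in 3 of 6 fits, and the brightest, second and dimmest Id2 probe sets in 2, 1 and 6 of 6. Under poly-A scaling 14675 genes were called in place of 3645, with 66 of the listed pathway genes in place of 33. Members were then 4 higher and 2 lower, with Inhbb at -0.35 and Bmp6 at 0.63 (called). Signs changed for Bmp2 (0.37), Grem1 (0.13), Id1 (0.54, called) and the brightest Id2 probe set (0.0226). They also changed for Acvrl1 (0.11), Skil (0.17), Smurf2 (0.24), Pcsk5 (0.083), Nog (0.0066), Atoh8 (0.14), Zfyve9 (0.24) and the dim Inhba probe set (0.48). This scaling shifts all genes by construction. It also gave every member the same SE of 0.19 in limma, so calls kept, lost or gained under it do not reflect the spread of each gene.

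Id3 gave 0.26 and lost its call in the fit over all probe sets, with the probe set of largest variance and with the replicate block, and gave 0.20 with median centring. Members called higher were then 1 in place of 2. With 1 array left out, called genes numbered 2433 to 3337, members called 5 to 6, 1 to 2 of them higher and 4 to 5 lower, member probe sets called 5 to 9 (8 with all arrays, lowest when proliferating replicate 3 or senescent replicate 2 was left out), and called pathway genes 25 to 29. The ranges were -0.68 to -0.25 for Grem1, which passed without proliferating replicate 1, -0.053 to 0.029 for Id1, 0.22 to 0.31 for Id3, 0.015 to 0.22 for Bmp6, -0.24 to -0.12 for Bmp2, and -0.15 to 0.030 for the dim Inhba probe set. The cause of these changes was not tested.

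Same-numbered arrays had correlations of their deviations of 0.09, -0.07 and -0.15, which do not show that the replicate numbers pair the samples. From so few arrays per group these values cannot exclude pairing either. The SE under the replicate block fell for Bmp4, Bmp6, Inhbb, Fst, Grem1 and Id2, as for Grem1 from 0.208 to 0.124. It rose for Bmp2, Inhba, Id1 and Id3, as for Id1 from 0.0752 to 0.0879. With the replicate block 2935 genes were called and 5 members, 1 of them higher. Bmp2 has no value among genes above background. Calls of dim genes rest on levels near background.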
